A study of Mus musculus with 8 samples.

Results

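The collagen and laminin genes of the mouse brain were followed through permanent middle cerebral artery occlusion (PMCAO) and treatment with the neuropeptide PACAP38. They were taken as all non-control probes of a whole mouse genome microarray whose gene symbol is that of a collagen chain or of a laminin alpha, beta or gamma chain. This gave 98 of 41174 probes, for 50 of 27962 gene names, with 78 probes for 40 collagen genes and 20 probes for 10 laminin genes. Laminin beta 1 is written Lamb1-1 on this array, was not caught by the rule, and was counted with the partner proteins of the basement membrane instead. Of the 50 genes, 34 had several probes, and each gene is given by its brightest probe unless another is named.

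RNA came from the ipsilateral (right) hemisphere of male C57BL/6J mice, a wild-type inbred strain, aged 8 to 12 weeks. PMCAO or sham surgery was followed at once by an intracerebroventricular injection of 1 pmol PACAP38 in 1 µl or of saline, and tissue was taken after 6 or 24 h. This made 8 pools, sham or PMCAO, saline or PACAP38, at 6 or 24 h, each of RNA from 3 mice. PACAP38 and saline RNA of one surgery and time were hybridized together on a 2-colour array and again with the dyes swapped, giving 8 arrays with 2 arrays per comparison. The 2 arrays repeat the same pooled RNA, so each comparison had 1 biological replicate and no test of its own, and the difference between the arrays is technical. By the paper, the PMCAO mice used had neurological grades 1 and 2, and olfactory bulb and cerebellum were left out. The hemisphere was not divided further, so that infarcted and spared tissue were measured together.

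Collagen IV and laminins are the main fabric of basement membranes, the thin sheets on which brain endothelial cells, pericytes and astrocyte end-feet rest. Collagen IV is built from the chains of Col4a1 and Col4a2 in most vessels, and laminins are trimers of an alpha, a beta and a gamma chain, of which those with the alpha 4 and alpha 5 chains (Lama4 and Lama5) belong to the endothelium. The fibrillar collagens, types I, III and V among them, lie outside the basement membrane in meninges and vessel walls. The vascular basement membrane is known as a structure that is broken down and remade after ischemic stroke.

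The upstream sequences of a few genes are shown first because pairs of these genes lie side by side in the genome. On the RefSeq annotation of GRCm38.p6, Col4a1 and Col4a2 are neighbours on chromosome 8, and so are Col3a1 and Col5a2 on chromosome 1, Col6a2 and Col6a1 on chromosome 10, Col9a1 and Col19a1 on chromosome 1, Col4a4 and Col4a3 on chromosome 1, and Col4a6 and Col4a5 on chromosome X. Col4a1 and Col4a2 are read in opposite directions, and their annotated starts are 21 bases apart. A stretch of 30 bases just before the start of Col4a2 and within the first bases of Col4a1 holds the letters CCAAT 32 bases before the start of Col4a2. It lies at chr8:11312760-11312789 and is shown on the plus strand, with CCAAT in capitals.
Col4a1 and Col4a2: cccgaggagctccCCAATttgttggcgctg
The 250 bases before the starts of Col3a1, a fibrillar collagen, and Col7a1, the anchoring fibril collagen, are given as a contrast within the genes that were lower with PACAP38 at 24 h. They lie on the plus strand at chr1:45311288-45311537 and chr9:108953336-108953585. Capitals mark the letters TATAAA in Col3a1, and CCAAT (as its reverse complement ATTGG) and GGGCGG in Col7a1.
Col3a1: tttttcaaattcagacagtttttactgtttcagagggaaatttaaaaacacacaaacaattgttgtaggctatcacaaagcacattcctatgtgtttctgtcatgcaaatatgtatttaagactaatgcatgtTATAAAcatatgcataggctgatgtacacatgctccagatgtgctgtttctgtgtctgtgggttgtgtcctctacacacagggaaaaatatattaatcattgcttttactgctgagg
Col7a1: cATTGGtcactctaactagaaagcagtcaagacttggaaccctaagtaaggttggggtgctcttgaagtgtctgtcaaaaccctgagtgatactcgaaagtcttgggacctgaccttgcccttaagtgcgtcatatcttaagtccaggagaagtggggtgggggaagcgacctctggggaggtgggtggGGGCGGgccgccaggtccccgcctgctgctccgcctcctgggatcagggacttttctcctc
The Col3a1 stretch had 35.2% G and C and 1 TATAAA, and the Col7a1 stretch had 56.4% G and C with 1 CCAAT and 1 GGGCGG. Promoters of 36 of the 50 genes, 40 in all, were in the RefSeq table. TATAAA was found on either strand in 12.5% of them and in 12.4% of all 32851 promoters of the same length, CCAAT in 30% against 33.9%, and GGGCGG in 50% against 32.7%. None of these letter strings is contained in another, and a match describes the letters only.

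Signal quality sets which of the values can be read. Of the 98 probes, 69 for 46 genes were well above background in both dyes in at least 1 of the 8 pools, 43 were so in all 16 channels, and 18 in none. No collagen or laminin probe was saturated. The 5 neuron markers on the array were well above background in at least 14 of 16 channels, as fits brain tissue. One array stood apart from the rest: on the 6 h sham array with PACAP38 in Cy3, 10.65% of spots were outliers, against 0.323 to 3.09% on the other arrays. PMCAO over sham differences of all probes that used this array had a standard deviation of 1.26 and 1.22 on the log2 scale, against 0.355 to 0.519 for those that did not, and they correlated with the GC content of the probes at r = 0.62 and 0.60 across 17639 probes. The saline difference at 6 h in Cy3, which did not use it, correlated with GC content at r = 0.50, and the other 5 that did not use it at 0.05 to 0.16. Values of 6 h that used this array are given with and without it, or are marked as including it. The 6 h arrays lay on one slide and the 24 h arrays on another, so time and slide cannot be told apart.

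The first comparison asks what occlusion did to these genes, from same-dye signals of PMCAO and sham arrays of one time. At 24 h after PMCAO with saline, the collagen IV pair of the vascular basement membrane and a set of fibrillar and laminin chains were higher than in sham. Col5a3 was the highest at 3.54-fold, followed by Col4a1 at 3.24-fold and Col4a2 at 2.51-fold. Of 98 probes 24 were above 1.5-fold, where 9.18% of all probes were, and 17 were below 0.75-fold, where 14.2% of all probes were. After normexp, loess and Aquantile 8 were above, against 2.7% of all probes. With a limit of 2-fold in place of 1.5-fold, 8 were above, against 4.09%. Among the 64 probes well above background in both dyes in 1 of the groups compared, 20 were above 1.5-fold, against 8.58% of all such probes, and 9 were below 0.75-fold, against 13.8%. By genes, 11 of 44 measured were above and 7 below, with a median log2 difference of 0.12 over the members' genes and of -0.06 over all measured probes.

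With PACAP38, PMCAO over sham at 24 h gave fewer high members. Of 98 probes 9 were above 1.5-fold, against 6.03% of all probes, and 16 below 0.75-fold, against 9.01%. Among 60 measured probes 6 were above, against 4.54%, and 9 below, against 7.14%. By genes, 4 of 44 were above, namely Col5a3, Col4a2, Col4a1 and Lamb3, and 8 were below. The saline and PACAP38 differences come from channels of the same arrays, so they are set side by side and their likeness is not read as a result.

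**Figure D1:**
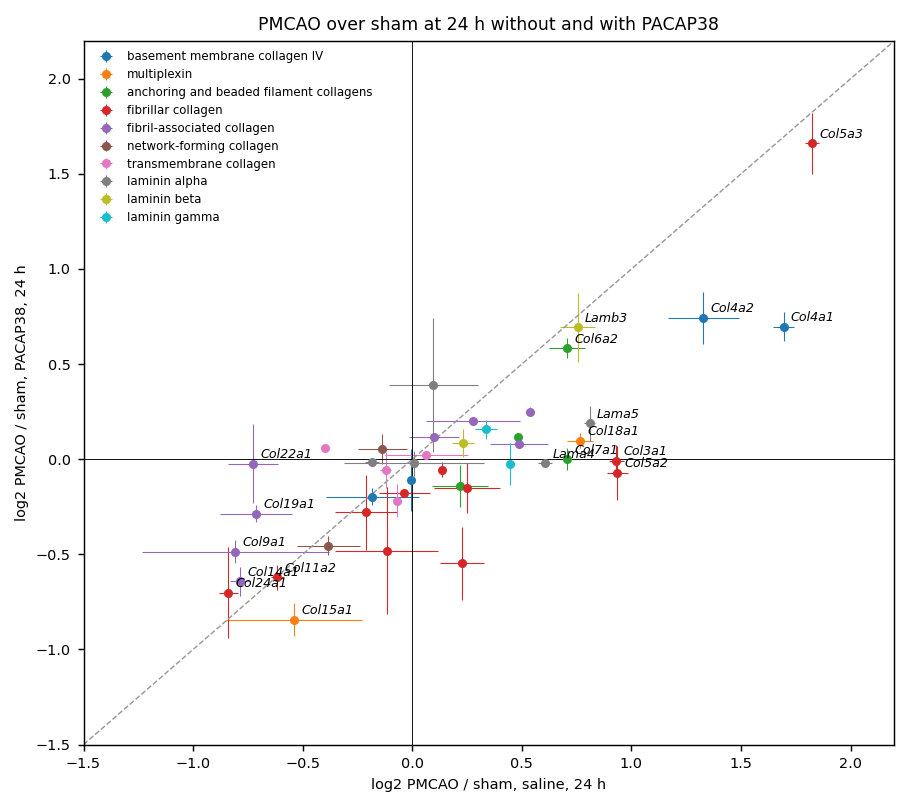
PMCAO over sham at 24 h for the measured collagen and laminin genes, as log2 difference with saline on the horizontal and with PACAP38 on the vertical axis, coloured by role. Points are means of both dyes, bars reach to the value of each dye, and the dashed line marks equal values. Col5a3 lies near that line (3.54-fold and 3.16-fold), and Col4a1 lies to its right (3.24-fold and 1.62-fold).

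Col5a3, a fibrillar collagen V chain, was high after PMCAO with either treatment. Its log2 difference was 1.79 in Cy3 and 1.86 in Cy5 with saline, and 1.82 and 1.5 with PACAP38, so all 4 values were far above 0. A fit over the 4 PMCAO minus sham differences (limma, Benjamini-Hochberg over 24468 probes) gave 1.74 ± 0.12 (SE) at 24 h with an adjusted p of 0.000314. The PACAP38 and saline values overlapped.

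Col4a1 and Col4a2, the basement membrane pair, also rose. For Col4a1 the log2 difference was 1.65 and 1.74 with saline and 0.77 and 0.62 with PACAP38, in Cy3 and Cy5. For Col4a2 it was 1.49 and 1.17 with saline and 0.61 and 0.88 with PACAP38. In both genes every saline value lay above every PACAP38 value, where the 2 values of a treatment are dye readings of the same pools. The limma estimates at 24 h were 1.2 ± 0.22 for Col4a1 (adjusted p = 0.0153) and 1.04 ± 0.15 for Col4a2 (adjusted p = 0.00648), and the second probe of each passed as well, with 1.28 and 1.30. Of the other collagen IV genes, Col4a4 was at 0.996-fold and Col4a6 at 0.881-fold with saline, and Col4a3 and Col4a5 were not measured in this comparison. Another Col4a6 probe was lower, with log2 differences of -0.43 and -0.44 in the 2 array pairs of 24 h, over saline and PACAP38 channels together.

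Of 67 member probes tested by limma at 24 h, 7 rose, against 6.56% of all probes tested, and 3 fell, against 5.75%, in 8 genes together. Besides those named, Col6a2, a beaded filament collagen, rose by 0.65 (adjusted p = 0.0412), and Lamb3, a laminin beta chain best known from epithelia, rose by 0.72 (adjusted p = 0.0413). The genes that fell were Col11a2, a fibrillar collagen of cartilage, by 0.62 (adjusted p = 0.0149), Col14a1, a fibril-associated collagen, by 0.71 (adjusted p = 0.0487), and Col24a1, a minor fibrillar collagen, by 0.77 (adjusted p = 0.0462). The saline and PACAP38 differences of one time share arrays, so these p-values are too small to that extent. With the 4 arrays of 24 h as units, all 10 probes also passed, among 34 of 69 member probes, 23 higher and 11 lower, against 14.1 and 20.8% of all probes. The 2 arrays of a group repeat the same pooled RNA, so p-values with arrays as units cover technical error only. Without the 6 h array that stood apart, which feeds the common spread, the fit called 2 member probes, the brightest of Col5a3 (adjusted p = 0.0049) and the second of Col4a1 (adjusted p = 0.0489). The share of all probes called at 24 h by this refit is not given, so its count has no background beside it.

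A further set was high with saline and near the sham level with PACAP38. Col3a1, the fibrillar collagen of vessel walls, had log2 differences of 0.96 and 0.90 with saline and of 0.07 and -0.09 with PACAP38. Col5a2, a collagen V chain and the neighbour of Col3a1, had 0.98 and 0.89 against 0.07 and -0.21. Lama4 had 0.64 and 0.57 against -0.03 and -0.01, and Lama5 had 0.79 and 0.83 against 0.28 and 0.10. Saline and PACAP38 values did not overlap in any of these. The 2 values of a group are dye readings of the same pools, so this covers technical error only. Col18a1, the multiplexin of vascular basement membranes whose end fragment is endostatin, was at 1.70-fold with saline and 1.07-fold with PACAP38, and Col7a1 was at 1.63-fold and 1.00-fold. None of these 6 genes passed the 24 h limma test over the saline and PACAP38 differences, with adjusted p from 0.108 for Col18a1 to 0.312 for Lama5, whereas each passed with arrays as units, where the error is technical.

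Of the 7 genes that were low after PMCAO at 24 h with saline, 4 were fibril-associated collagens, Col9a1, Col14a1, Col19a1 and Col22a1, of 8 measured. Low members with saline were about as frequent as low probes in general, at 14.06% of measured member probes against 13.8% of all. With PACAP38, 2 fibril-associated and 4 fibrillar collagens were among the 8 low genes. There 15% of measured member probes were low, against 7.14% of all measured probes. Col14a1 was at 0.58-fold with saline and 0.641-fold with PACAP38. Col24a1 was the lowest with saline at 0.559-fold, and Col15a1, the other multiplexin, was the lowest with PACAP38 at 0.558-fold, against 0.688-fold with saline. Col9a1 was at 0.571-fold and 0.714-fold, though its 2 dyes differed with saline (-0.38 and -1.24). For Col22a1 the brightest probe gave 0.604-fold with saline and its other probe 1.06-fold, and for Col27a1 they gave 0.922-fold and 1.54-fold. The 4 transmembrane collagens were all within the limits in both treatments.

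The second comparison asks what PACAP38 did in the ischemic hemisphere, on arrays where both RNAs were hybridized together. These PMCAO arrays were also used above, so the ratios are not independent of the gap between saline and PACAP38 given there. At 24 h after PMCAO, 13 of 43 measured collagen and laminin genes were below 0.75-fold in the PACAP38 pool relative to the saline pool, and 1 was above 1.5-fold. The lowest were Col5a2 at 0.481-fold, Col4a1 at 0.518-fold, Col3a1 at 0.525-fold and Col4a2 at 0.57-fold. Of 98 probes 28 were below 0.75-fold, against 8.18% of all probes, and 1 was above 1.5-fold, against 2.99%. After another background correction (normexp with an offset of 50, and loess) 15 were below, against 2.82%. With a limit of 2-fold in place of 0.75-fold, 2 of 98 were below, against 1.44%. Among the 62 measured probes 21 were below 0.75-fold, against 7.07% of all measured probes, and 15 were below on each of the arrays taken alone, against 4.7%, with none above, against 0.634%. The median log2 ratio of the measured member probes was -0.21, against 0.04 over all measured probes. In bulk tissue such as this, fewer cells of a type and less RNA per cell cannot be told apart.

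**Figure D2:**
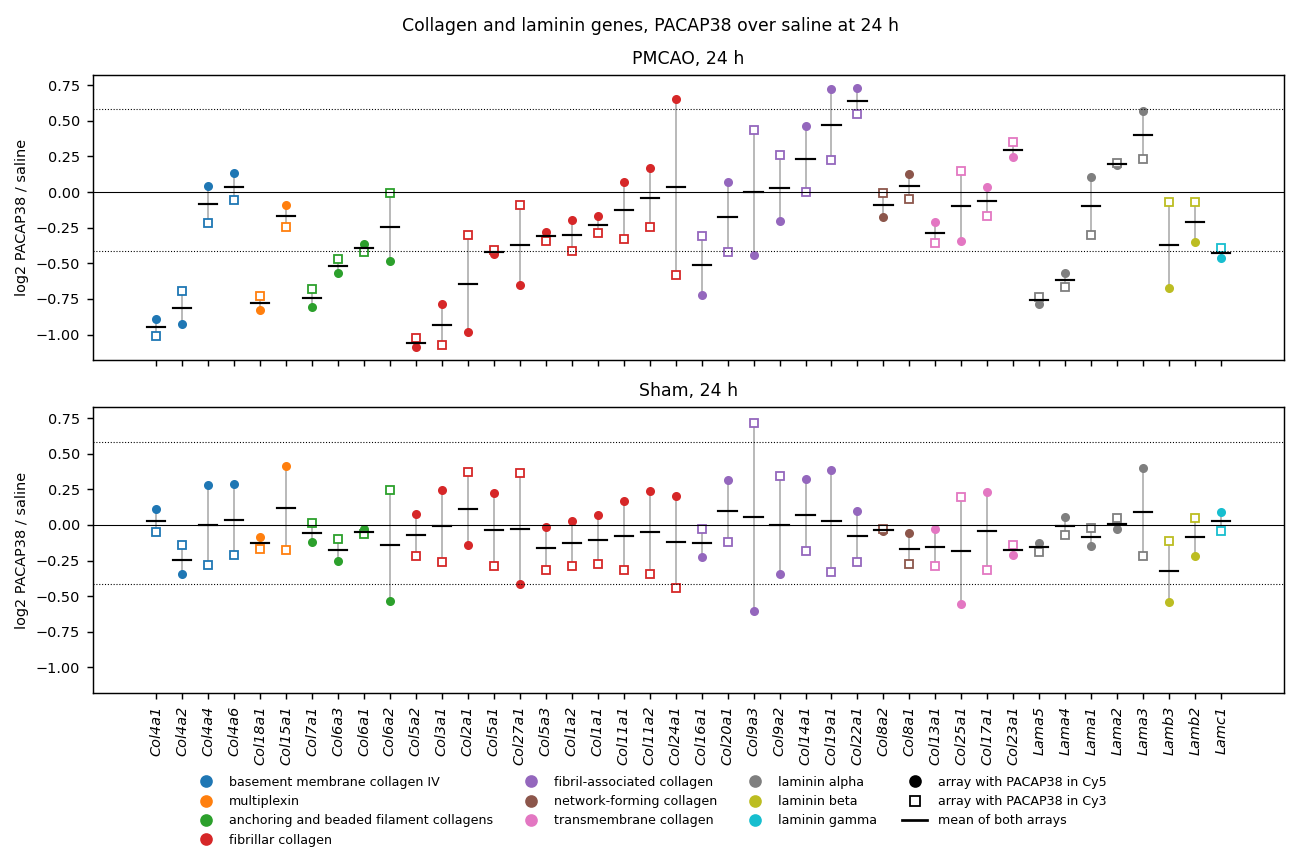
PACAP38 over saline at 24 h for the collagen and laminin genes by role, as log2 ratio, in sham and in PMCAO hemispheres; points are single arrays and the wide marks their mean, with the fold limits as dotted lines. The plot holds 42 of the 43 measured genes. In PMCAO 13 lie below 0.75-fold and 1 above 1.5-fold, while in sham none passes either limit.

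By role, 2 of 4 measured collagen IV genes were below 0.75-fold, as were 3 of 9 laminins, 4 of 11 fibrillar collagens, and 2 of 4 anchoring and beaded filament collagens. So were 1 of 2 multiplexins and 1 of 7 fibril-associated collagens, but 0 of 2 network-forming and 0 of 4 transmembrane collagens. The share of all measured probes was 7.07%. Col4a1 had log2 ratios of -0.89 with PACAP38 in Cy5 and -1.01 with PACAP38 in Cy3, and its second probe was at 0.587-fold. Col4a2 had -0.93 and -0.69, with a second probe at 0.562-fold. Each array put both genes below the limit.

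Among the fibrillar collagens, Col5a2 had log2 ratios of -1.09 and -1.02, and Col3a1 of -0.78 and -1.08. Col2a1, the main collagen of cartilage, was at 0.64-fold with uneven arrays of -0.98 and -0.30, and its other measured probe was at 0.665-fold with -0.62 and -0.55. Col5a1, the partner chain of Col5a2, was at 0.749-fold, just below the limit, with -0.43 and -0.40. Col5a3, the highest gene after PMCAO, was at 0.806-fold with -0.28 and -0.34. The chains of collagen I were within the limits, with Col1a1 at 0.854-fold and Col1a2 at 0.811-fold, but the other measured probe of Col1a1 was below, at 0.736-fold with -0.41 and -0.47.

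Among the laminins, Lama5 had log2 ratios of -0.78 and -0.74 and Lama4 of -0.57 and -0.67, and the other 2 measured probes of Lama4 were at 0.604-fold and 0.596-fold. Lamc1, the gamma chain of most laminins, had -0.46 and -0.40, a fold of 0.743. These 3 chains were below the limit, as the mean of both arrays. The alpha chains Lama2 and Lama3, found in glial and epithelial laminins, were at 1.15-fold and 1.32-fold, and Lamb2 was at 0.865-fold.

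Col18a1 had log2 ratios of -0.82 and -0.73, with a second probe at 0.632-fold. Col7a1 had -0.81 and -0.68. Col6a3 was at 0.698-fold, while Col6a1 and Col6a2, its partner chains in beaded filaments, were at 0.762-fold and 0.843-fold. The second probe of Col6a2 was lower, at 0.435-fold with arrays of -0.80 and -1.60. Col16a1, a fibril-associated collagen, was at 0.70-fold with arrays of -0.72 and -0.31. The single gene above the limit was Col22a1, a collagen of tissue junctions, with 0.73 and 0.55 at its brightest probe, whereas its other probe was at 0.973-fold. The other 29 measured genes lay between 0.762-fold (Col6a1) and 1.39-fold (Col19a1). Col4a3, Col4a5, Col9a1, Col10a1, Col12a1, Col28a1 and Lamc3 were not well above background in both dyes of a pool in this comparison, and Col4a3, Col10a1, Col12a1 and Col28a1 in none of the 8 pools.

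**Figure D3:**
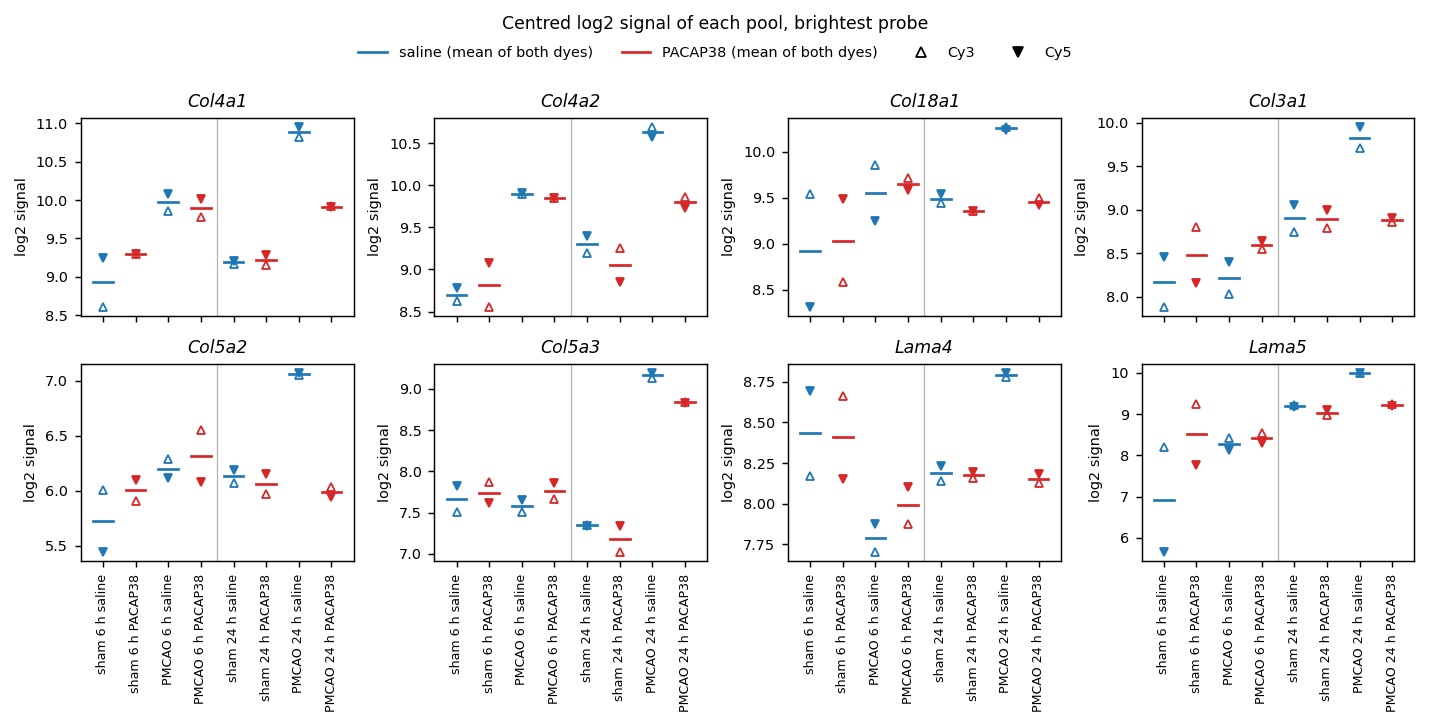
Level of 8 collagen and laminin genes in each of the 8 pools, as log2 processed signal centred per channel. Triangles are single dyes and horizontal marks their mean. Col4a1 is at 9.19 and 9.22 in the 24 h sham pools, at 10.88 in the PMCAO pool with saline and at 9.91 in the PMCAO pool with PACAP38.

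As levels within one probe, Col4a1 was at a log2 signal of 9.19 and 9.22 in the saline and PACAP38 sham pools of 24 h, 10.88 in the PMCAO saline pool and 9.91 in the PMCAO PACAP38 pool. Col3a1 was at 8.90, 8.89, 9.83 and 8.88 in the same order, and Lama5 at 9.19, 9.03, 10.00 and 9.22. In Col3a1 and Lama5 the PMCAO saline pool alone stood apart, while in Col4a1 the PACAP38 pool lay between. Col5a3 went from 7.34 and 7.18 in sham to 9.17 and 8.84 in PMCAO. These levels are signals of the same arrays as the comparisons above and add no separate support.

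In the sham hemisphere at 24 h the same genes were close to 1. Of 98 probes 4 were above 1.5-fold, against 1.75% of all probes, and 5 below 0.75-fold, against 3.87%, and none of these 9 was well above background in both dyes of a pool. None of the 61 measured probes passed either limit, against 0.218 and 1.34% of all measured probes. Col5a2 was at 0.953-fold, Col4a1 at 1.02-fold, Col3a1 at 0.994-fold, Col4a2 at 0.845-fold and Lama5 at 0.897-fold. Of 43 probes bright in all channels, 14 had the same sign on both sham arrays of 24 h and 32 on both PMCAO arrays, with correlations across probes of -0.67 and 0.76. Over all 17639 probes bright in all channels, 26.2 and 58.03% had the same sign on both arrays, with correlations of -0.60 and 0.43. The dye-linked part of the ratios was alike in both comparisons of 24 h (r = 0.895 across 17639 probes) and cancels in the mean of swapped arrays.

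Across all 4 pairs of pools, which are independent, no effect of PACAP38 passed a test. For the mean over the pairs limma called 0 of 96 member probes and 0% of 36121 probes, and for the difference between PMCAO and sham pairs again 0 and 0%. At an unadjusted p under 0.05 there were 2 member probes for the mean, both lower, of Col13a1 and Col16a1, and 903 higher and 680 lower of all probes. For the difference there were 4 member probes, of Col11a1, Col13a1, Col27a1 and Lama4, and 1237 higher and 789 lower of all probes. The estimated PMCAO minus sham difference in the PACAP38 effect was -0.72 for Col4a1, with a 95% interval of -2.00 to 0.56 on the log2 scale, and -0.44 for Col3a1, with -2.27 to 1.38. These fits average 6 and 24 h and include the 6 h sham array that stood apart.

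At 6 h the ratios of PACAP38 over saline were small. In PMCAO 6 of 98 probes were above 1.5-fold, against 5.41% of all probes, and 10 below 0.75-fold, against 6.9%. Among 62 measured probes 1 was above, against 3.49%, and 3 below, against 3.4%. The measured genes below the limit were Col17a1, a transmembrane collagen of hemidesmosomes, at 0.704-fold, Col8a1, a network-forming collagen of vessel endothelium, at 0.722-fold, and Col9a3, a fibril-associated collagen, at 0.743-fold. None was below it on each array, with log2 ratios of -0.28 and -0.73, -0.69 and -0.25, and -0.67 and -0.19. The other Col8a1 probe was at 0.855-fold. Of 43 probes bright in all channels, 20 had the same sign on both of these arrays (r = 0.08). Over all 17639 such probes 54.6% did (r = 0.20). Col4a1 was at 0.947-fold, Col4a2 at 0.96-fold, Col3a1 at 1.29-fold and Col5a2 at 1.08-fold. In sham 8 of 96 probes were above, against 3.98%, and 3 below, against 7.48%. The highest measured gene there, Lama5 at 3.02-fold, had log2 ratios of -0.43 and 3.62, the latter on the array that stood apart. Without that array it was at 0.742-fold, and 14 of 98 probes were above, against 6.67%, and 11 below, against 10.3%.

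PMCAO over sham at 6 h depended on the array in question. With it, 40 of 96 probes were above 1.5-fold with saline, against 27.4% of all probes, and 14 below 0.75-fold, against 25.1%. Without it 27 of 98 were above, against 16.5%, and 16 below, against 17.8%. With PACAP38 the counts were 34 and 15 of 96 with it, against 26.5 and 19.9%, and 18 and 7 of 98 without it, against 16.2 and 13%. The saline reading without the array rests on the Cy3 difference, which still correlated with the GC content of the probes at r = 0.50. The 6 h limma test called 33 higher and 10 lower member probes, against 35.6 and 28.8% of all probes, and with arrays as units it called 0 of 67, against 0% of 24474, with 3 higher and 1 lower member probes at an unadjusted p under 0.05. Without the array that stood apart it called 3 higher and 1 lower of 69, against 5.57 and 5.03%. For the difference of 24 h minus 6 h it called 9 higher and 19 lower, against 20.4 and 25.3%, and without the array 1, for which no share of all probes is given.

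The collagen IV pair was high at 6 h on either reading. Col4a1 was at 2.05-fold with the array and 2.37-fold without it in saline pools, and at 1.52-fold and 1.65-fold in PACAP38 pools. Col4a2 was at 2.29-fold and 2.41-fold with saline, and at 2.05-fold and 1.71-fold with PACAP38. Col2a1 was at 2.89-fold and 2.79-fold with saline and at 1.71-fold and 1.79-fold with PACAP38. Its other measured probe depended on the array, at 2.29-fold and 1.21-fold with saline and at 3.23-fold and 1.54-fold with PACAP38. Lama1, the laminin alpha chain of early basement membranes, was low at 6 h on either reading. It was at 0.463-fold and 0.348-fold with saline and 0.277-fold and 0.554-fold with PACAP38. Both PMCAO pools of 6 h were well above background in only 1 dye each for Lama1. Col13a1, a transmembrane collagen, was at 0.434-fold and 0.702-fold with saline. Col5a3, high at 24 h, was at 0.938-fold and 0.993-fold.

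Col13a1 and, with PACAP38, Lama1 moved by more than 1.5 times when that array was left out, and other extremes of 6 h did too. Lamb2 went from 3.23-fold to 1.58-fold with saline, Lamb3 from 2.09-fold to 1.14-fold and Col27a1 from 2.64-fold to 1.70-fold with PACAP38, and Col1a1 from 0.326-fold to 0.682-fold with saline. With that array included, Lamc3 was not well above background in sham with saline and was at least 1.18-fold higher in PMCAO. Probes of one gene disagreed in direction in 4 of 13 genes with several measured probes in the 6 h saline comparison, and in 5 of 19 with PACAP38. Without the array these counts were 3 of 13 and 1 of 19. At 24 h the counts were 2 of 18 and 1 of 15. Among the genes concerned were Col11a2, Col1a1, Col4a4, Col8a1, Col22a1 and Lama4 at 6 h with the array included, and Col22a1, Col27a1 and Col2a1 at 24 h.

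**Figure D4:**
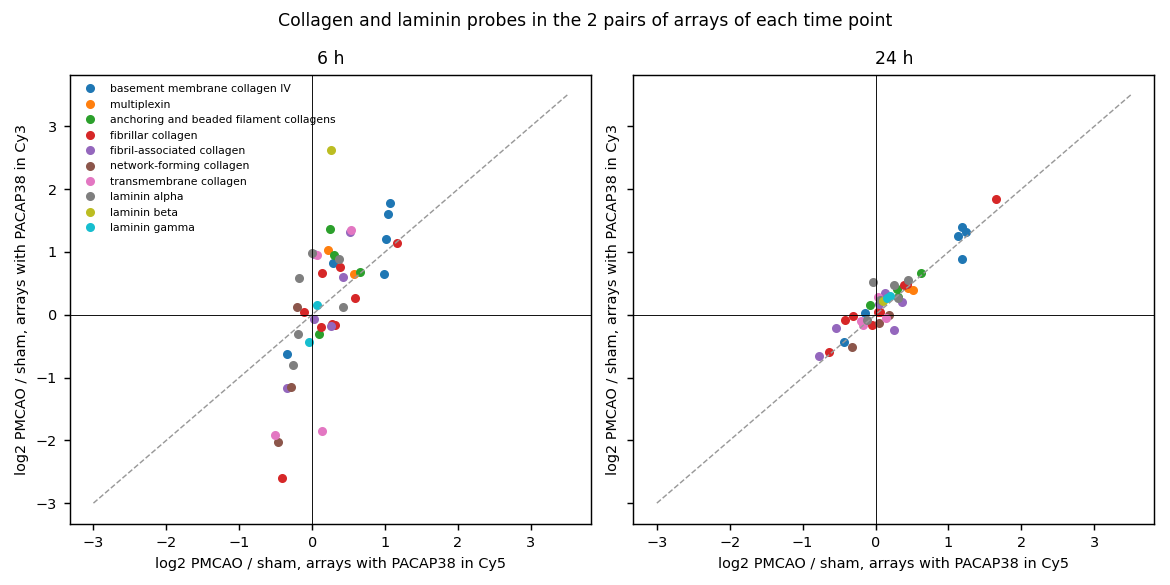
PMCAO over sham log2 difference of the collagen and laminin probes bright in all 16 channels (43 probes), from the pair of arrays with PACAP38 in Cy5 against the pair with PACAP38 in Cy3, at 6 h and at 24 h. The pairs correlate across these probes at r = 0.68 at 6 h and 0.93 at 24 h, against 0.39 and 0.80 over 17639 probes.

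Genes that work with collagens and laminins were counted in the same way for PACAP38 over saline in PMCAO at 24 h, where 7.07% of all measured probes were below 0.75-fold and 1.47% above 1.5-fold. Of 22 measured basement membrane partners and matrix glycoproteins, 9 were below the limit and 1 above, with a median of 0.789-fold. Nid1 and Nid2, the nidogens that link laminin to collagen IV, were at 0.61-fold and 0.679-fold, and were at 1.65-fold and 1.45-fold after PMCAO with saline. Lamb1-1 was at 1.07-fold. Of 22 genes of collagen biosynthesis and crosslinking, 5 were below and 1 above, and Lox, which crosslinks collagen and elastin, was the lowest at 0.313-fold. Lox was at 11.3-fold after PMCAO with saline and 3.86-fold with PACAP38, with the sham pools well above background in 1 dye each (adjusted p = 0.00446 over both by limma). Serpinh1, the collagen chaperone, was at 0.685-fold.

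Of 14 measured collagen and laminin receptors, 2 were below and none above, with a median of 0.866-fold, against the same shares of all measured probes. They were Itga11 at 0.658-fold and Itgb4 at 0.73-fold, integrin chains that bind collagen and laminin. Of 13 TGF-beta ligands and targets, 6 were below and none above. Thbs1, which activates latent TGF-beta, was at 0.195-fold with PACAP38, and at 19.6-fold after PMCAO with saline against 3.1-fold with PACAP38. Tgfb1, one of the ligands, was at 0.612-fold.

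Markers of cells that make or touch these proteins were counted for PACAP38 over saline in PMCAO at 24 h against the same 7.07 and 1.47% of all measured probes. Of 9 endothelial markers 5 were below the limit and 1 above, and the summed signal of 8 of them was 21248 with saline and 14766 with PACAP38, against 18267 and 18354 in the sham pools of 24 h. Of 10 pericyte and smooth muscle markers 3 were below, and the sum of 9 was 16724 and 13818 in PMCAO against 14432 and 13892 in sham. Of 10 fibroblast and meningeal markers, some of them matrix genes counted above as well, 4 were below and 1 above, and the sum of 9 was 15384 and 13103 against 13749 and 13546. Of 8 choroid plexus markers 2 were below, and the sum of 6 was 3951 and 3306 against 4078 and 3602. The saline pool is given first in each pair. None of 5 neuron and none of 5 astrocyte markers passed. All 5 measured neutrophil markers were below, with S100a9 at 0.118-fold, and their summed signal was 49142 with saline and 5802 with PACAP38 against 753 and 1117 in sham, with Camp above background in no channel. The part of these cells in the collagen and laminin values was not tested.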

How the data were processed

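RNA of 8 pools (3 mice each, 300 ng per mouse, 900 ng per labeling) was hybridized to 8 two-colour Agilent arrays. The authors' Feature Extraction files (version 9.5.3.1 in the submitters' processing notes, 9.5.1.1 in the headers of the 6 h arrays) hold, per spot, a log10 ratio of Cy5 over Cy3 after background subtraction and dye normalization, the processed and raw intensity of each channel and quality flags. The deposited value table holds the linear ratio of Cy5 over Cy3, as a score with a minus sign before it on arrays with PACAP38 in Cy3; the rule of that sign is not given in the sources used here, and the table served as an alternative only. Deposited second copies of 3 array files were identical and were counted once. Dye swaps of one pair of pools were averaged as 1 replicate, after the sign was turned where PACAP38 was in Cy3. Counts cover all genes of a list, but 2 genes are not reported here by name. Outlier spots were left out and spots of one probe averaged. PMCAO over sham was taken from log2 processed signals of the same dye, each channel centred on the median of probes well above background on all 4 arrays of a time. Limits of 1.5-fold and 0.75-fold follow the study. limma 3.58.1 (R 4.3.3, intensity trend) was fitted for PACAP38 over saline on all probes with a value. For PMCAO over sham it was fitted on probes well above background in both dyes in at least 1 of the 8 pools. Shares of all probes beside limma calls are shares of the probes fitted. The fits were tried on simulated data with independent differences, whereas the PMCAO over sham differences of one time share arrays. Genes were given in full where limma called them or where they were among the 3 highest or 3 lowest of a comparison, past the limit, alike in both dyes and above background; the 6 h limma test called most probes and its calls were not used for this. The genes, their roles and the lists were chosen with earlier results of these data known. Probe positions in the headers are on mm7 and were not mixed with GRCm38.p6. Alternatives were another background correction and normalization, other limits and filters, single dyes and single arrays left out. The number of arrays limits the precision.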

Additional observations from a re-analysis of the deposited data

How the results depend on the processing

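No paired analysis was possible within a comparison, because the replicate number marks the dye orientation of one pooled RNA and no comparison had more than 1 biological replicate. PACAP38 and saline were paired by array in every setting, and the 4 pairs of pools were tested together. Of 31 named values under 222 settings, 220 kept their sign, and the mean of all probes of a gene turned Col1a1 to 0.0435 and Col13a1 to 0.34 (log2) in the 6 h saline comparison. Of 153 recomputed counts, 93 were within 1.5 times the reported one. For PACAP38 over saline the counts of probes past the limit (PMCAO at 24 h, low; sham at 24 h, PMCAO at 6 h and sham at 6 h, either direction) were 28, 9, 16 and 11. They became 15, 0, 0 and 1 with normexp and loess, 2, 0, 2 and 3 with a limit of 2-fold, and 17, 1, 2 and 4 when each array had to pass. At 2-fold the low probes of PMCAO at 24 h were 2.04% of members, against 1.44% of all probes. Requiring a signal on both arrays left 0, 7 and 3 of the last 3, requiring it in both dyes left 0, 4 and 3, and single arrays gave 29 to 34, 17 to 18, 25 to 30 and 19 to 25. PMCAO over sham at 24 h gave 24 high probes with saline and 9 with PACAP38, and 17 and 16 low ones. These became 8, 2, 3 and 1 with normexp, loess and Aquantile and 8, 2, 2 and 2 with a limit of 2-fold. At 2-fold the high probes with saline were 8.16% of members, against 4.09% of all probes. Cy5 alone gave 18 high and 10 low with PACAP38, both-dye signal left 9 and 9 low ones, and a limit of 1.5-fold left 11 low ones with saline. At 6 h the counts of 54 and 49 became 16 and 12 with normexp, loess and Aquantile, 30 and 22 at 2-fold, 34 with saline for both-dye signal, and 25 with PACAP38 for Cy5 alone and also without the array that stood apart. The limma calls of 43 at 6 h, 10 at 24 h and 28 for their difference became 0 in single dyes. Without the array they were 4, 2 and 1. Arrays as units, with technical error only, gave 0 and 34, a single mean 2 and 2, and no trend 3 at 24 h. Without one difference at a time they ranged from 30 to 43, 6 to 14 and 18 to 27. Counts given without a share of all probes under the same setting do not show whether members stood out. Normexp was run with an offset of 50, which pulls ratios of dim probes to 1. It was changed together with the normalization, so the part of the offset was not isolated. The cause of the shifts was not tested.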

Other observations

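Prl, the pituitary hormone prolactin, was not well above background with PACAP38 at 24 h. Saline exceeded PACAP38 by at least 2.89-fold in PMCAO and at least 1.51-fold in sham, where a bound sets the brighter pool against the dimmest signal well above background. Cga, the shared alpha chain of pituitary glycoprotein hormones, was at 3.43-fold with PACAP38 over saline in PMCAO at 24 h, and at least 1.47-fold higher in sham, where it was not well above background with saline. The 6 pituitary markers on the array had a summed signal of 336 and 354 in the sham pools of 24 h and of 398 and 350 in the PMCAO pools, with saline first. Mmp8, a neutrophil collagenase, was at 0.0958-fold with PACAP38 in PMCAO at 24 h. With saline its PMCAO signal exceeded sham, where it was not well above background, by at least 4.72-fold. The probe listed as Aldh1l1, an astrocyte enzyme, was at 46.7-fold and 38.0-fold after PMCAO at 24 h with saline and with PACAP38. Its sham pools were well above background in 1 dye each, and both differences come from the same arrays. By limma with the 24 h arrays as units its adjusted p was 0.277, so the rise did not pass there. Gfap, the astrocyte filament protein, was at 2.16-fold and 1.90-fold.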
